A study of Mus musculus with 30 samples.

Results

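The comparison described here is between 4 mouse hippocampal tumors labelled NES-CRE and 7 labelled GFAP-CRE, which make up 11 of the 30 arrays of the series. The members were taken by array title, and every gene with a single-symbol probe set was compared, 19938 genes in all. Tumors labelled NES were injected with NES-CRE in the hippocampus and tumors labelled GFAP with GFAP-CRE in the hippocampus. Each construct carries the Cre recombinase with the name of a promoter, that of nestin or of glial fibrillary acidic protein, and the series title names the tumors as glioblastomas of transduced mice. RNA came from dissected tumors, with no sorting of cells stated. The comparison addresses whether tumors started at the same site with different promoters differ in their expressed genes. GFAP tumors 5 to 7 are listed apart from GFAP tumors 1 to 4, so each result is given against all 7 and against the 4 alone. The 4 arrays of normal hippocampus serve as reference, and the remaining 15 arrays of cortex and subventricular zone entered only the estimate of the spread. The genes altered in the mice, the strain, the age and the time to dissection are not given in the sources used here. Whether the arrays of a group stem from different animals is not stated either. The p-values therefore measure only the spread between these samples, and that spread may be technical.

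Gfap encodes an intermediate filament of astrocytes, and its promoter is also active in the stem cells of the adult brain. Nes encodes the intermediate filament of neural stem and progenitor cells, and it is re-expressed in gliomas and in reactive astrocytes. Cre driven from either promoter recombines the genome only in cells where that promoter is active, and a glioma can then grow from the recombined cell. A dissected glioma holds tumor cells together with neurons, glia, vessels and infiltrating myeloid cells, and an array measures the RNA of all of them.

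The measurement was made on Affymetrix Mouse Gene 1.0 ST arrays, and the values are log2 signal, which includes background, so that a low value does not show that a gene is absent. Array medians lay between 7.19 and 7.30 in the NES tumors, between 7.10 and 7.28 in GFAP tumors 1 to 4 and between 7.03 and 7.07 in GFAP tumors 5 to 7. No columns were identical. On the first principal component of the 11 tumors, which held 39.7% of their variance, GFAP tumors 1 to 4 lay between -52.1 and -20.2 and GFAP tumors 5 to 7 between 21.7 and 82.8. NES tumor 1 lay at -36.8 among GFAP tumors 1 to 4, while NES tumors 2 to 4 lay between 10.1 and 29.3. The mean correlation of NES tumor 1 was 0.951 with the GFAP tumors and 0.946 with the other NES tumors. GFAP tumors 2, 3 and 5 were also closer to the other group. Their mean correlations were 0.9647, 0.9533 and 0.9174 with the NES tumors. With the other GFAP tumors they were 0.9451, 0.9485 and 0.8891. On the second component, which held 36.4%, NES tumor 1 at -5.5 lay within the GFAP tumors (-14.7 to 66.9). NES tumors 2 to 4 lay below all of them (-70.1 to -40.7). On the first component both NES tumor 1 and GFAP tumors 5 to 7 stood apart from the rest of their groups, and values with and without them are given below.

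Against all 7 GFAP tumors, 3 of 19 neuron markers, 3 of 9 GABA-A receptor subunits and 4 of 13 oligodendrocyte precursor genes were higher in NES tumors and none of these lists had a lower call. In the other direction 2 of 16 macrophage genes, 4 of 17 hypoxia and glycolysis genes and 3 of 18 matrix genes were lower, with no higher call. Of 19938 genes, 1637 passed the limma test at an adjusted p under 0.05, which is 8.21% of those tested. Of these, 1220 (6.12%) were higher in NES tumors and 417 (2.09%) lower. The arrays of the groups did not overlap for 339 genes (1.7%), of which 196 (0.983%) lay higher and 143 (0.717%) lower in NES tumors, and of these 141 (0.707%) and 94 (0.471%) were also called. Against GFAP tumors 1 to 4 the balance turned, with 769 genes higher (3.86%) and 1405 lower (7.05%), together 2174 genes or 10.9%. For 1417 genes (7.11%) the 4 NES arrays did not overlap the arrays of GFAP tumors 1 to 4, with 390 (1.96%) higher and 1027 (5.15%) lower, and of these 152 (0.762%) and 565 (2.83%) were also called. An unadjusted p under 0.05 was reached by 27.7% of all genes against all 7 tumors and by 29.8% against tumors 1 to 4. The comparisons share the NES arrays and 4 of the GFAP arrays; 520 genes were called higher in both, 247 lower in both, and none was called in opposite directions.

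The calls rested on the pooled spread and on single tumors. A fit on the compared arrays alone made 0 calls with limma in either comparison, while 3829 genes against all 7 tumors and 4951 against tumors 1 to 4 had an unadjusted p under 0.05 in that fit. Against all 7 tumors the number of calls was 6 without NES tumor 4, 15 without NES tumor 3, 154 without NES tumor 2 and 3398 without NES tumor 1. In the same comparison it was 793 without GFAP tumor 1, 443 without tumor 6 and 282 without tumor 7. Against tumors 1 to 4 it was 12, 247 and 620 without NES tumor 4, 3 or 2, and 443, 1206 and 548 without GFAP tumor 1, 3 or 4. Leaving out NES tumor 1 raised it to 4943, and leaving out 1 GFAP tumor of the cortex, which only enters the spread, raised it to 4218 and, against all 7, to 3266. Of 82 described genes called against all 7 tumors, Fgf1, Rpsa and Egr3 kept their call whichever of the 11 tumors was left out. Of 104 such genes called against tumors 1 to 4, Igf2bp1, E2f1 and Lamb1 did so. The share of calls that were higher in NES tumors, 74.5% against all 7, was 32.5% after each array was centred on its median (731 higher, 1515 lower) and 41.1% after quantile normalization (883 higher, 1267 lower). The median difference over all genes was 0.06 on the log2 scale and fell to -0.16 with the centring. The direction of differences smaller than about that shift therefore depends on the scaling. Calls of genes with larger differences were also lost with rescaling, such as those of Arc and Vip described below.

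**Figure D1:**
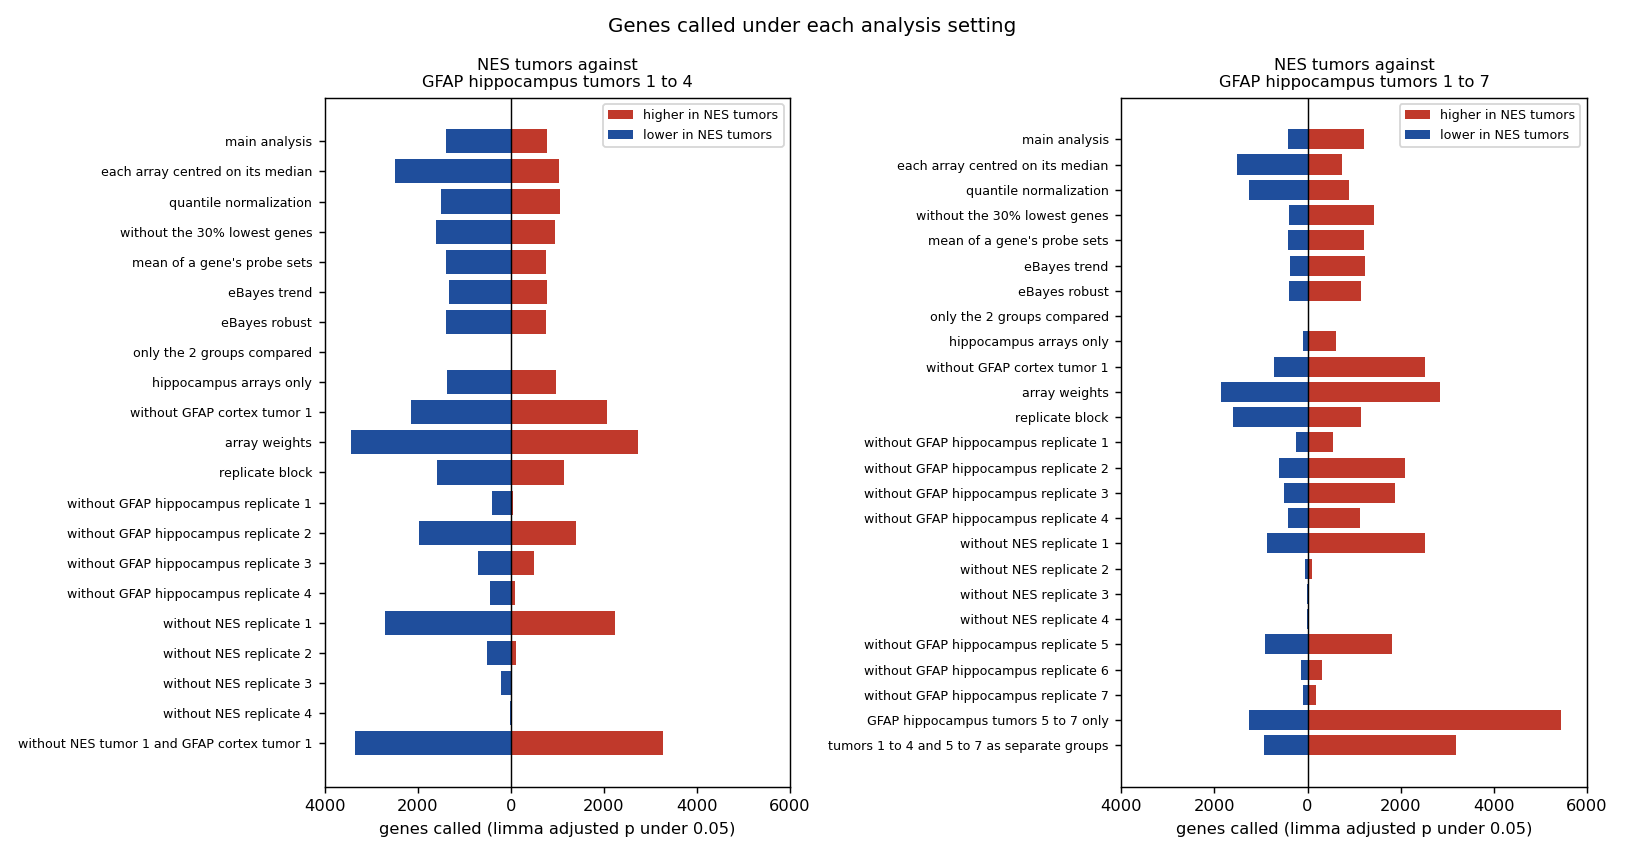
Number of genes called by limma in each comparison (horizontal axis, genes; red to the right, higher in NES tumors; blue to the left, lower) under each analysis setting (vertical axis). Against all 7 GFAP tumors the calls range from 0 in a fit of the compared arrays alone to 6706 against GFAP tumors 5 to 7, and leaving out NES tumor 4 leaves 6 calls.

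Neither gene whose promoter named a construct was called higher in the tumors made with it. Gfap signal was 11.39, 12.05, 12.02 and 11.31 in NES tumors 1 to 4, and 9.93 to 12.71 with a median of 11.56 in the 7 GFAP tumors. The NES arrays lay inside that range, and the log2 difference was 0.31 ± 0.60 (SE, 4 against 7 arrays, limma adjusted p = 0.773). GFAP tumors 1 to 4 were at 9.93, 11.83, 11.56 and 10.45 for Gfap, with a median of 11.01 beside 11.71 in NES tumors. Gfap did not pass the limma test against these 4 either, and against GFAP tumors 5 to 7 only its difference was -0.27. Nes signal was 11.53, 10.003, 9.08 and 9.04 in NES tumors 1 to 4 against 11.65, 10.83, 11.46 and 11.75 in GFAP tumors 1 to 4. NES tumor 1 reached the level of the GFAP tumors while the other NES tumors lay below all 4, and the difference was -1.51 ± 0.40 (limma adjusted p = 0.0245). In GFAP tumors 5 to 7 Nes was at 8.97, 10.47 and 11.12, and against all 7 tumors its difference of -0.98 ± 0.43 did not pass (limma adjusted p = 0.142). Normal hippocampus was at 7.02 to 7.68 for Nes and 9.95 to 10.41 for Gfap. Syn1, a protein of synaptic vesicles whose promoter drove Cre elsewhere in the series, was higher in NES tumors by 1.67 ± 0.53 against all 7 tumors (limma adjusted p = 0.0492). The Syn1 difference against GFAP tumors 1 to 4, 1.27 ± 0.57, did not pass (limma adjusted p = 0.139).

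Signals of 3 tumor suppressor genes were compared. Cdkn2a, which encodes the cyclin-dependent kinase inhibitor p16INK4a and the p53 activator p19ARF, had a signal of 9.65, 8.51, 8.01 and 8.57 in NES tumors 1 to 4. In GFAP tumors 1 to 4 it was 9.90, 9.77, 10.19 and 9.77, above every NES tumor, and in tumors 5 to 7 it was 8.17, 10.11 and 9.95. The Cdkn2a difference was -1.22 ± 0.27 against tumors 1 to 4 (limma adjusted p = 0.0123) and -1.01 ± 0.30 against all 7 (limma adjusted p = 0.0413). Both tumor groups lay above normal hippocampus, where Cdkn2a was at 7.19 to 7.44. Nf1, a negative regulator of RAS, differed by 0.47 ± 0.22 against all 7 tumors and 0.06 ± 0.20 against tumors 1 to 4, and neither passed (limma adjusted p = 0.176 and 0.866). The signal of the retinoblastoma gene Rb1 differed by 0.87 ± 0.31 and 0.51 ± 0.33, which did not pass either (limma adjusted p = 0.0706 and 0.309).

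The gene with the largest difference among those higher in all 4 NES tumors than in all 7 GFAP tumors was somatostatin. Somatostatin, Sst, the neuropeptide of a class of inhibitory interneurons, had a signal of 10.11, 11.43, 12.62 and 11.60 in NES tumors 1 to 4. In the 7 GFAP tumors Sst ran from 7.77 to 9.89 with a median of 9.38, and normal hippocampus was at 12.39 to 12.67. Every NES tumor was above every GFAP tumor, and the difference was 2.50 ± 0.49 against all 7 (limma adjusted p = 0.0129) and 2.17 ± 0.53 against tumors 1 to 4 (limma adjusted p = 0.0167). The Sst promoter is shown because the cyclic AMP response element was first worked out on this gene, and it lies on the minus strand of GRCm38.p6 at chr16:23890845-23891094, from RefSeq. The capitals mark TGACGTCA, the palindrome of that element, at 48 bases before the start.
Sst promoter: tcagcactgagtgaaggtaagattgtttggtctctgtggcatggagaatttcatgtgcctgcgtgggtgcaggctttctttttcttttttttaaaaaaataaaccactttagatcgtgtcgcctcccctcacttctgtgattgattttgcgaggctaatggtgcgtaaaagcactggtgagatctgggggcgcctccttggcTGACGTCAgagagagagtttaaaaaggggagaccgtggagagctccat
Of 27025 genes in the RefSeq table, 1.77% hold TGACGTCA within the 250 bases before any of their starts. A match of letters is a description of the window and not of binding.

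Further genes stood apart from all 7 GFAP tumors in the same direction. Fgf1, a fibroblast growth factor made by neurons, had a signal of 8.54, 9.58, 9.69 and 9.47 in NES tumors 1 to 4 against 7.34 to 8.20 (median 7.75) in the GFAP tumors. No array overlapped, the difference was 1.62 ± 0.22 (limma adjusted p = 0.00127), and this call was kept without any 1 tumor. Ak5, an adenylate kinase of the brain, was at 9.38, 9.78, 10.14 and 9.89 against 7.18 to 8.72 (median 8.42), a difference of 1.67 ± 0.37 (limma adjusted p = 0.0162). Gabra5, the GABA-A receptor subunit typical of hippocampal pyramidal cells, was at 8.62, 9.59, 9.79 and 9.72 against 6.14 to 8.56 (median 7.5). The Gabra5 difference was 1.95 ± 0.60 against all 7 tumors (limma adjusted p = 0.0460), and at 1.75 ± 0.68 it did not pass against tumors 1 to 4 (limma adjusted p = 0.0876). Normal hippocampus lay above the NES tumors for Gabra5 (11.91 to 12.30) and Ak5 (10.90 to 11.20), and NES tumors 2 to 4 lay above normal hippocampus (8.97 to 9.33) for Fgf1. The other genes of this kind with a large difference were Dbpht2 at 2.21 ± 0.53, the small GTPase Rab33a at 1.83 ± 0.47, the mitochondrial calcium-binding protein Efhd1 at 1.77 ± 0.36, Clvs1 at 1.75 ± 0.44, the G-protein regulator Rgs7 at 1.74 ± 0.54, the ephrin Efna3 at 1.60 ± 0.29, the sialyltransferase St6galnac5 at 1.57 ± 0.46, the potassium channel Kcnh1 at 1.53 ± 0.31, Rgs2 at 1.46 ± 0.36, the semaphorin receptor Plxnc1 at 1.45 ± 0.37 and Sorbs2 at 1.44 ± 0.33. For all 11 the limma adjusted p against all 7 tumors lay between 0.0104 (Efna3) and 0.0473 (Rgs7). Without NES tumor 3 or without NES tumor 4 none of the genes of this paragraph kept its call against all 7 tumors other than Fgf1.

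**Figure D2:**
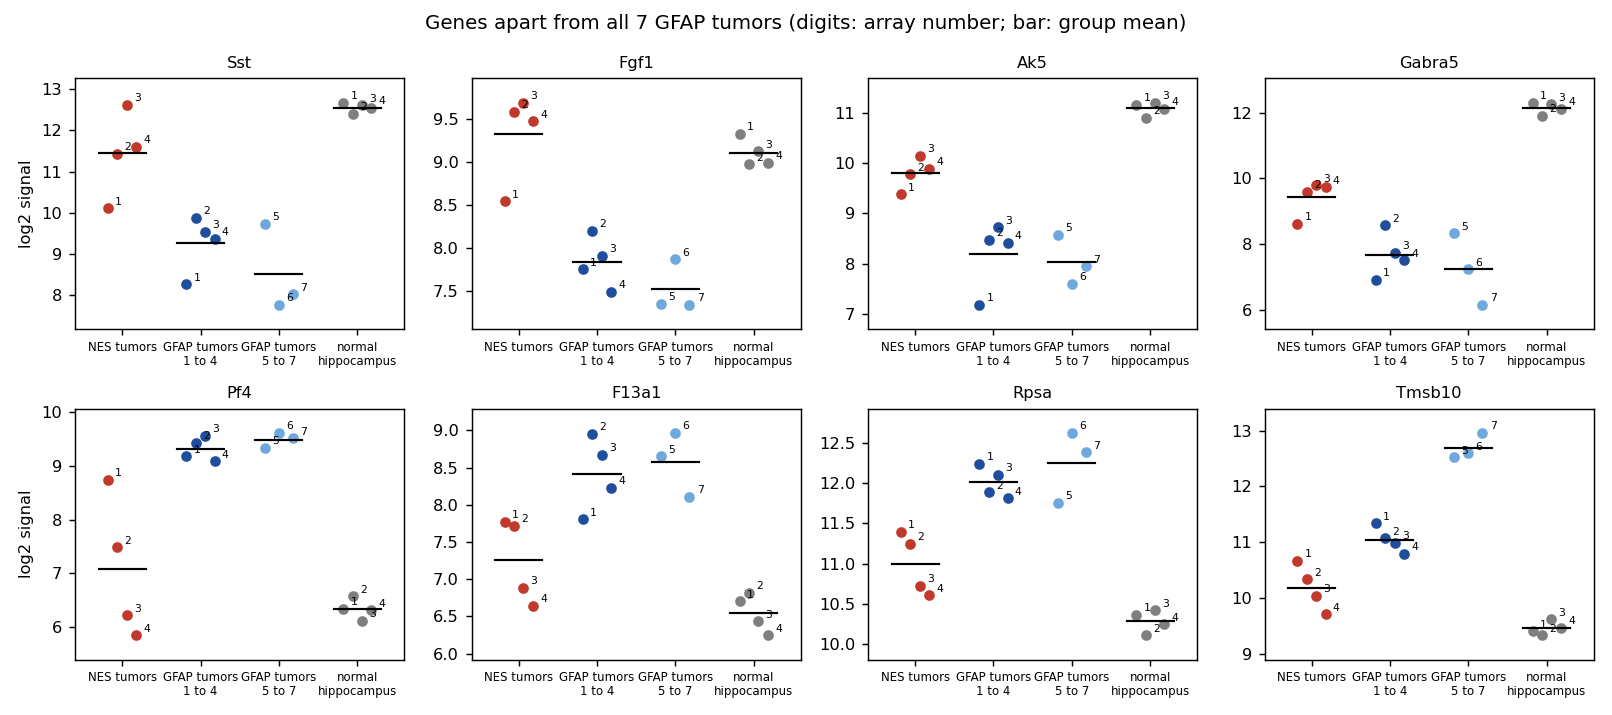
Log2 signal (vertical axis) of 8 genes in each tumor and in normal hippocampus, by group (horizontal axis); each point is 1 array with its number, and the bar is the group mean. In the upper panels every NES tumor lies above all 7 GFAP tumors, as for Sst at 10.11 to 12.62 against 7.77 to 9.89, and in the lower panels every NES tumor lies below them, as for Pf4 at 5.85 to 8.74 against 9.08 to 9.62.

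Among 19 measured neuron markers, Rbfox3 (the NeuN antigen), Syn1 and the transcription factor Neurod2 were higher in NES tumors against all 7 GFAP tumors, none was lower, and the median difference of the list was 1.08 beside 0.06 over all genes. Rbfox3 was at 9.45, 10.78, 11.11 and 10.65 in NES tumors 1 to 4 against 7.66 to 9.67 (median 8.63) in the GFAP tumors. NES tumor 1 lay within the GFAP range and the other NES tumors above it, with a difference of 1.79 ± 0.50 (limma adjusted p = 0.0319). Against GFAP tumors 1 to 4 only Neurod2 passed, at 0.83 ± 0.27 (limma adjusted p = 0.0495), while the list median was 1.24 and all 19 differences were positive. The mean of the neuron list relative to normal hippocampus was -1.30, -0.39, -0.08 and -0.45 in NES tumors 1 to 4, and -2.33 to -0.70 with a median of -1.78 in the 7 GFAP tumors. NES tumors 2 to 4 lay above every GFAP tumor, and NES tumor 1 lay within them. In bulk tissue, fewer neurons and less RNA per neuron cannot be told apart. No neuron marker was called against all 7 tumors without NES tumor 2, 3 or 4 or without GFAP tumor 6 or 7, and 6 were called without NES tumor 1. Against tumors 1 to 4 the count was 0 without NES tumor 2, 3 or 4 or GFAP tumor 1 or 4, 9 without NES tumor 1 and 14 without that tumor and the GFAP cortex tumor that stands apart.

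Of 13 genes of synaptic vesicles and their release, Syn1 and the priming factor Unc13a were higher against all 7 tumors. The calls against tumors 1 to 4 were Unc13a at 1.42 ± 0.40, the complexin Cplx2 at 1.21 ± 0.37 and the syntaxin Stx1a at 0.83 ± 0.20 (limma adjusted p = 0.0297, 0.0413 and 0.0154), and the list medians were 1.05 and 1.27. Of 9 measured GABA-A receptor subunits, Gabra3 at 2.05 ± 0.54, Gabra5 and Gabrg1 at 1.57 ± 0.48 were higher against all 7 (limma adjusted p = 0.0269, 0.0460 and 0.0434), with a list median of 1.57. None of the 9 passed against tumors 1 to 4, where the median was 1.55. Of 13 glutamate receptor and scaffold genes only the postsynaptic scaffold Dlg4 passed against all 7, at 1.35 ± 0.37 (limma adjusted p = 0.0311), and none against tumors 1 to 4, with medians of 1.26 and 1.39. All members of these 3 lists had positive differences in both comparisons. Without NES tumor 2, 3 or 4 no vesicle gene and no GABA-A subunit was called in either comparison, and leaving out NES tumor 1 raised the calls against all 7 to 8 and 7. Without GFAP tumor 6 or 7 neither list had a call against all 7, and without GFAP tumor 1 the vesicle list had none in either comparison.

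Interneuron genes gave 3 calls of 13 against all 7 tumors (Sst, Nos1 and Vip) and 4 against tumors 1 to 4 (with Slc32a1, the vesicular GABA transporter), with medians of 1.06 and 1.10. Nos1, the neuronal nitric oxide synthase, was at 8.06, 8.90, 9.69 and 8.77 in NES tumors 1 to 4 and at 6.56 to 8.20 (median 7.83) in GFAP tumors. The groups met only at NES tumor 1 and the highest GFAP tumors, and the difference was 1.35 ± 0.32 (limma adjusted p = 0.0212). Vip differed by 0.86 ± 0.23 (limma adjusted p = 0.0282); this call against all 7 was lost when arrays were centred on their medians. No interneuron gene was called without NES tumor 3 or 4 in either comparison, nor against tumors 1 to 4 without GFAP tumor 1.

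Markers of hippocampal regions were far below normal tissue in both kinds of tumor. Of 14 measured, 9 were lower than normal hippocampus in NES tumors, with a median of -1.94, and 13 in the 7 GFAP tumors, with a median of -2.12; these comparisons share the normal arrays. Between the tumor groups Neurod6, a transcription factor of pyramidal neurons, was at 5.91, 7.32, 7.11 and 8.10 in NES tumors and at 5.25, 5.44, 5.62 and 5.40 in GFAP tumors 1 to 4. The groups did not overlap, and the difference was 1.68 ± 0.45 (limma adjusted p = 0.0256), against 10.13 to 10.68 in normal hippocampus. GFAP tumor 5 was at 7.27, within the NES range. Wfs1, an endoplasmic reticulum protein that marks field CA1, was higher against all 7 tumors by 1.31 ± 0.37 (limma adjusted p = 0.0327). The other genes that lay highest against tumors 1 to 4, apart from Sst, Dbpht2, Rab33a and Ak5, were Sowaha at 1.74 ± 0.49, Sh3rf2 at 1.74 ± 0.45, Gpr83 at 1.66 ± 0.51, the transcription factor Bcl11a at 1.61 ± 0.43 and the ephrin receptor Epha4 at 1.57 ± 0.40. Their limma adjusted p lay between 0.0213 and 0.0409.

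Among 15 immediate early genes, which neurons switch on with activity, 2 were higher against all 7 tumors and 4 against tumors 1 to 4. NES tumor 2 stood apart, with a mean of the list relative to normal hippocampus of -0.08, while NES tumors 1, 3 and 4 at -0.98, -0.85 and -0.97 were level with GFAP tumors 1 to 4 at -1.24 to -0.86. Egr3 was at 8.65, 9.84, 9.11 and 8.91 in NES tumors 1 to 4 and at 7.71 to 8.66 (median 8.05) in the GFAP tumors. The groups touched only between NES tumor 1 and GFAP tumor 3, and the difference was 1.03 ± 0.18 (limma adjusted p = 0.0104), a call kept without any 1 tumor. Nr4a3, an orphan nuclear receptor, was at 7.46, 8.80, 8.10 and 8.14 against 6.46 to 7.33 (median 7.09). For Nr4a3 no array overlapped, and the difference was 1.13 ± 0.26 (limma adjusted p = 0.0191). Arc at 1.03 ± 0.32 and Egr4 at 0.66 ± 0.20 passed as well against tumors 1 to 4 (limma adjusted p = 0.0432 and 0.0425), making 4 of 15; neither kept its call after the centring or quantile normalization, and Nr4a3 lost its own there only with quantile normalization. Arc was at 10.14 in NES tumor 2 and at 7.98 to 8.82 in the other NES tumors. All 4 genes lay below normal hippocampus in the group means of both tumor kinds, with Arc at 10.44 to 10.70 and Egr3 at 9.59 to 9.77 in the normal arrays. The medians of the list were 0.55 and 0.30.

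Of 13 myelin genes, the fatty acid hydroxylase Fa2h at 1.53 ± 0.42 and the membrane protein Opalin at 1.15 ± 0.29 were higher against all 7 GFAP tumors (limma adjusted p = 0.0318 and 0.0246), and Opalin at 1.32 ± 0.33 against tumors 1 to 4 (limma adjusted p = 0.0180). All 13 differences were positive, with medians of 0.88 and 0.98. Of 13 precursor and proneural genes, the transcription factors Olig2 and Sox6, the proteoglycan NG2 (Cspg4) and the sialidase Neu4 were higher against all 7. Olig2 was at 8.96, 9.09, 10.01 and 9.78 in NES tumors 1 to 4 and at 7.51 to 9.59 (median 7.92) in GFAP tumors. Only GFAP tumor 3 reached into the NES range, and the difference was 1.26 ± 0.37 (limma adjusted p = 0.0375). The Olig2 signal differed from tumors 1 to 4 by 1.0 ± 0.41, which did not pass (limma adjusted p = 0.108), while Neu4 at 0.61 ± 0.15 and the receptor Gpr17 at 1.02 ± 0.32 passed (limma adjusted p = 0.0184 and 0.0442). Olig2 in normal hippocampus was at 8.64 to 8.94, below all 4 NES tumors. No precursor gene was called against all 7 without NES tumor 2, 3 or 4 or without GFAP tumor 1, 4, 6 or 7; without NES tumor 3 or 4 none was called against tumors 1 to 4. Of these calls, Neu4 and Sox6 against all 7 were lost with either rescaling, and Cspg4 with the centring.

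No astrocyte marker passed in either comparison, although 14 of 16 differences were positive in each, with medians of 0.47 against all 7 and 0.90 against tumors 1 to 4. Among 13 stem and progenitor genes, the nuclear receptor Nr2e1 (TLX) was at 7.73, 8.73, 8.57 and 8.26 in NES tumors and at 6.46 to 7.88 (median 7.25) in GFAP tumors. NES tumor 1 lay inside the GFAP range, and the difference was 1.03 ± 0.27 (limma adjusted p = 0.0260). From tumors 1 to 4, Nr2e1 differed by 1.03 ± 0.30 and Hes5, a Notch target, by 0.39 ± 0.11 (limma adjusted p = 0.0329 and 0.0319), while Nes and the transcription factor Sox4 were lower, Sox4 by -0.80 ± 0.24 (limma adjusted p = 0.0401). The Hes5 call did not outlast either rescaling in either comparison. The list therefore held members of both directions, with medians of 0.05 and -0.24.

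The set lower in all 4 NES tumors than in all 7 GFAP tumors was led by Pf4, the chemokine platelet factor 4, which platelets and some tissue macrophages express. Pf4 was at 8.74, 7.49, 6.22 and 5.85 in NES tumors 1 to 4 against 9.08 to 9.62 (median 9.43) in the GFAP tumors. No array overlapped, NES tumor 3 lay within normal hippocampus (6.12 to 6.57) and NES tumor 4 below it, and the difference was -2.31 ± 0.46 (limma adjusted p = 0.0129). F13a1, the coagulation factor XIII A chain, which monocytes carry, was at 7.77, 7.72, 6.88 and 6.64 against 7.80 to 8.97 (median 8.65), a difference of -1.23 ± 0.32 (limma adjusted p = 0.0253). Arginase 1, Arg1, an enzyme of alternatively activated macrophages, was at 9.54, 8.76, 6.63 and 6.49 against 9.10 to 10.88 (median 10.39). NES tumor 1 overlapped the GFAP range and NES tumors 3 and 4 were at the level of normal hippocampus (6.33 to 7.05), with a difference of -2.31 ± 0.48 (limma adjusted p = 0.0132). Arg1 and F13a1 were the calls among 16 monocyte and macrophage genes against all 7 tumors, and Itga4, an integrin of leukocytes, joined them against tumors 1 to 4 at -1.43 ± 0.41 (limma adjusted p = 0.0319). The list medians were -0.07 and -0.31, beside 0.06 and -0.03 over all genes. The mean of the list relative to normal hippocampus was 2.47 and 1.99 in NES tumors 1 and 2, 1.07 and 0.94 in NES tumors 3 and 4, and 1.24 to 2.23 in the 7 GFAP tumors. Pf4, F13a1 and Arg1 lost their calls in both comparisons without NES tumor 3 and without NES tumor 4.

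Broadly expressed genes were also lower in all NES tumors than in the GFAP tumors. Rpsa, the ribosomal protein SA that also serves as a laminin receptor, was at 11.40, 11.25, 10.72 and 10.61 in NES tumors 1 to 4 and at 11.76 to 12.63 (median 12.10) in the GFAP tumors. No array overlapped, and the difference was -1.12 ± 0.16 against all 7 (limma adjusted p = 0.00143) and -1.02 ± 0.15 against tumors 1 to 4 (limma adjusted p = 0.00343). Tmsb10, a thymosin that binds actin monomers, was at 10.67, 10.34, 10.04 and 9.71 against 10.79 to 12.96 (median 11.34). GFAP tumors 5 to 7 held its highest levels, from 12.52 to 12.96, so the difference was -1.56 ± 0.30 against all 7 and -0.86 ± 0.17 against tumors 1 to 4 (limma adjusted p = 0.0123 and 0.00984). The ribosomal proteins Rpl8 and Rps18 differed by -1.25 ± 0.23 and -1.05 ± 0.20 (limma adjusted p = 0.0104 and 0.0112). Ribosomal protein genes have many near-identical copies in the genome, so which copy the probes of Rpsa, Rpl8 and Rps18 read is uncertain. The others were the RNA-binding protein Hnrnpf at -1.21 ± 0.25, the prenyltransferase subunit Rabggtb at -1.16 ± 0.22, the zinc finger proteins Zfp345 at -1.04 ± 0.25 and Cnbp at -1.03 ± 0.25, the chitinase-like Chil4 at -1.02 ± 0.17, the T cell receptor segment Trav7d-4 at -1.01 ± 0.27, the mitochondrial protein Fam162a at -1.01 ± 0.25, Uap1l1 at -1.0 ± 0.22 and the translation factor subunit Eif3m at -0.99 ± 0.18. Chil4, Zfp345 and Trav7d-4 had a signal under 5.9 on every tumor and normal array, where differences are compressed by background, and Trav7d-4 and Zfp345 belong to families with similar members. Normal hippocampus lay below all NES tumors for Rpsa (10.11 to 10.42), Tmsb10 (9.34 to 9.62), Rpl8, Rps18, Hnrnpf and Uap1l1. For the other genes of this paragraph it overlapped the NES tumors. Apart from Rpsa, each gene of this paragraph lost its call against all 7 without NES tumor 4.

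Matrix and mesenchymal genes gave lower calls only. The mean of the matrix list relative to normal hippocampus was 2.64, 1.73, 0.82 and 0.82 in NES tumors 1 to 4 and 2.52 to 2.98 in GFAP tumors 1 to 4, so that NES tumor 1 lay at the GFAP level. Of 18 extracellular matrix genes, 8 were lower against tumors 1 to 4 and none higher, all 18 differences were negative, and the median was -1.27 beside -0.03 over all genes. Lamb1, the laminin beta 1 chain of basement membranes, was at 10.44, 9.28, 8.56 and 8.64 in NES tumors 1 to 4 and at 11.44, 10.73, 11.27 and 11.10 in GFAP tumors 1 to 4. No array overlapped, the difference was -1.90 ± 0.30 (limma adjusted p = 0.00349), and the call was kept without any 1 of these 8 tumors. GFAP tumors 5, 6 and 7 were at 8.93, 11.15 and 11.37 for Lamb1, so that GFAP tumor 5 lay with the NES tumors, and against all 7 the difference was -1.62 ± 0.36 (limma adjusted p = 0.0160). Thbs1, the matricellular glycoprotein thrombospondin 1, was at 12.59, 11.10, 8.83 and 9.10 against 13.50, 12.71, 12.70 and 12.54, with NES tumor 1 just above the lowest of these and a difference of -2.46 ± 0.57 (limma adjusted p = 0.0147). Fbln2 (fibulin 2), Thbs2, the urokinase Plau and its receptor Plaur were lower by -2.38 ± 0.54, -2.23 ± 0.62, -1.93 ± 0.55 and -1.56 ± 0.43 (limma adjusted p from 0.0131 to 0.0318). Against all 7 tumors Thbs1, Lamb1 and the collagen IV chain Col4a2 passed, and the list median was -0.70. Against GFAP tumors 5 to 7 alone the list median was -0.28. The calls against tumors 1 to 4 numbered 1 without NES tumor 3 or 4, 2 without GFAP tumor 1, 4 without NES tumor 2 or GFAP tumor 4 and 14 without NES tumor 1, and no matrix gene was called against all 7 without NES tumor 3 or 4.

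The mesenchymal glioma list, which holds genes of the state in which gliomas express wound and mesenchyme programs, gave 10 lower genes of 18 against tumors 1 to 4 and a median of -1.10. S100a6, a calcium-binding protein, was at 11.77, 10.63, 9.09 and 9.26 in NES tumors 1 to 4 and at 12.04, 12.21, 12.24 and 11.94 in GFAP tumors 1 to 4. These arrays did not overlap, and the difference was -1.92 ± 0.55 (limma adjusted p = 0.0315). The annexins Anxa1 and Anxa2, the integrin Itga5, the transcription factor Runx1 and the membrane protein Emp3 were lower by -1.80 ± 0.50, -1.61 ± 0.45, -1.51 ± 0.46, -1.36 ± 0.36 and -1.35 ± 0.34 (limma adjusted p from 0.0203 to 0.0402). Against all 7 tumors the calls were S100a6, Anxa1 and the TWEAK receptor Tnfrsf12a, and the list median was -0.57. Against GFAP tumors 5 to 7 alone the list median was 0.10, so the list was not lower there. The mean of the list relative to normal hippocampus was 2.60 in NES tumor 1, 1.85 in NES tumor 2, 0.98 in each of NES tumors 3 and 4, and 2.54 to 2.68 in GFAP tumors 1 to 4. GFAP tumors 5 to 7 were at 0.54, 2.11 and 2.20. Among normal arrays, normal hippocampus 3 was at 0.74 and the other 3 between -0.39 and -0.12, so the normal level of these genes varied. The calls against tumors 1 to 4 numbered 0 without NES tumor 3 or 4 or GFAP tumor 1, 4 without NES tumor 2, 3 without GFAP tumor 4, 5 without GFAP tumor 3 and 14 without NES tumor 1. The neuron list moved the other way on the same arrays, with all 19 differences positive against tumors 1 to 4 and a mean from -1.30 to -0.08 in NES tumors against -2.33 to -1.07 in those 4; its part in the lower matrix and mesenchymal genes was not tested.

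**Figure D3:**
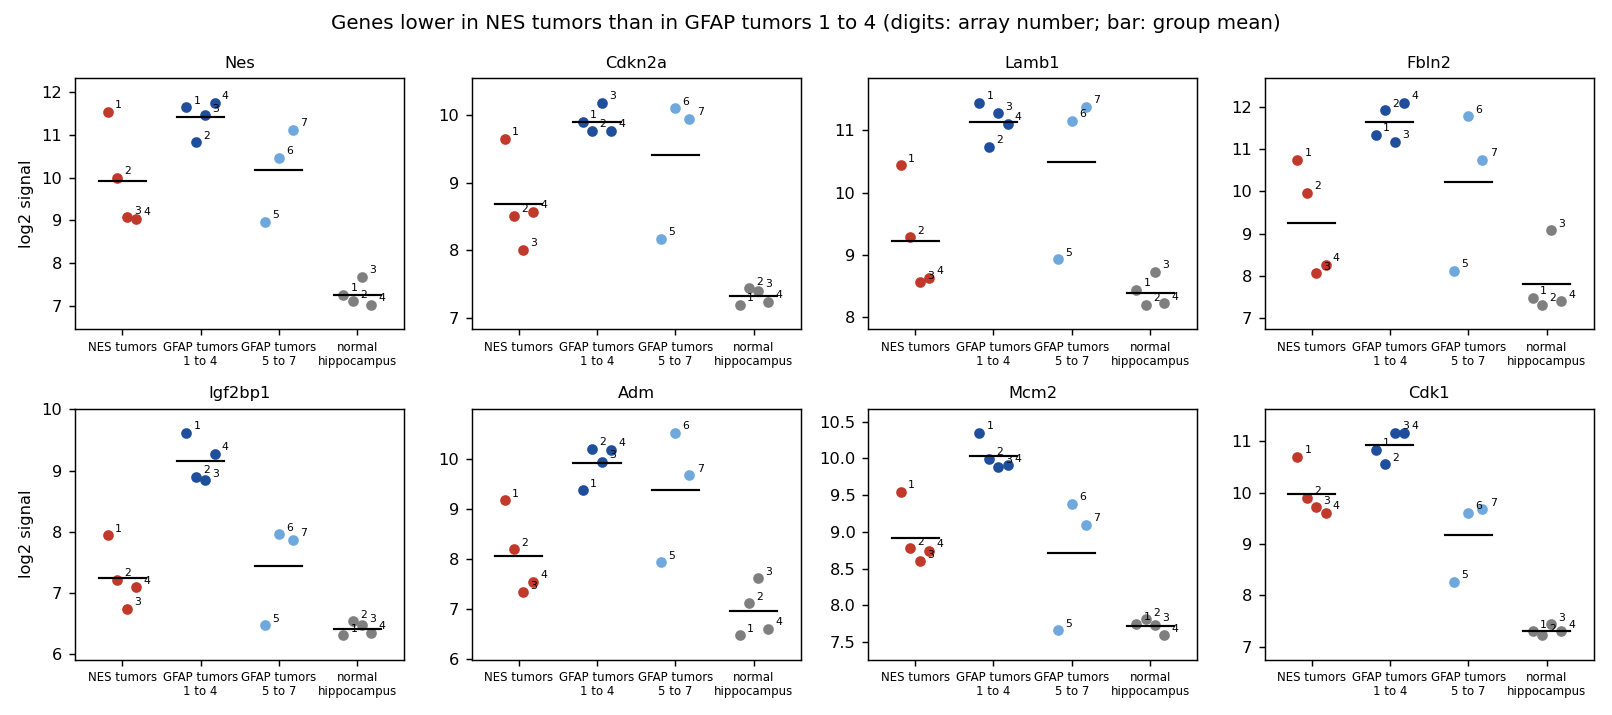
Log2 signal (vertical axis) of 8 genes that were lower in NES tumors than in GFAP tumors 1 to 4, by group (horizontal axis); each point is 1 array with its number, and the bar is the group mean. NES tumor 1 is the highest NES tumor in every panel, as for Nes at 11.53 beside 9.04 to 10.003, and GFAP tumor 5 is the lowest of the 7 GFAP tumors, as for Lamb1 at 8.93.

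Of the 10 genes that lay lowest against tumors 1 to 4 without overlap, several encode matrix proteins or enzymes that act on matrix. These were the metalloproteinases Mmp12 at -2.20 ± 0.57 and Mmp8 at -1.95 ± 0.43, the lysyl hydroxylase Plod2, which prepares collagen for crosslinking, at -2.12 ± 0.44, and Fbln2 and Thbs2 (limma adjusted p from 0.0106 to 0.0288). The epidermal gene Crct1 differed by -3.00 ± 0.88 (limma adjusted p = 0.0347), with 10.06, 9.98, 6.91 and 6.63 in NES tumors and 10.12 to 12.08 in GFAP tumors 1 to 4. The NES tumors split into a high and a low pair for Crct1, and GFAP tumor 5 at 6.85 was as low as the low pair. Igf2bp1, a fetal RNA-binding protein that reappears in cancers, was at 7.94, 7.21, 6.73 and 7.09 in NES tumors against 9.62, 8.89, 8.84 and 9.28. No array overlapped, the difference was -1.91 ± 0.26 (limma adjusted p = 0.00127), and the call was kept without any 1 of the 8 tumors. GFAP tumors 5 to 7 were at 6.47, 7.96 and 7.87 for Igf2bp1, and against all 7 the difference of -1.18 ± 0.38 did not pass (limma adjusted p = 0.0522). Fam110c was lower by -1.96 ± 0.36 (limma adjusted p = 0.00865). Pf4 and S100a6 complete the 10.

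All 19 mitosis and spindle genes were higher than normal hippocampus in NES tumors, by a median of 1.83, and all 19 in GFAP tumors 1 to 4, by a median of 2.61; these share the normal arrays. Between NES tumors and GFAP tumors 1 to 4, 10 of the 19 were lower, none higher and all differences negative, with a median of -0.84. Against all 7 tumors none passed and the median was -0.20. Against GFAP tumors 5 to 7 alone the median was 0.78. Cdk1, the kinase that drives entry into mitosis, was at 10.69, 9.90, 9.71 and 9.61 in NES tumors and at 10.83, 10.55, 11.16 and 11.16 in GFAP tumors 1 to 4. NES tumor 1 overlapped with them and the other NES tumors lay below, with a difference of -0.94 ± 0.25 (limma adjusted p = 0.0234). Cdk1 in GFAP tumors 5 to 7 was at 8.27, 9.61 and 9.68. Its cyclin Ccnb2 differed by -0.99 ± 0.25 with no overlap, and the checkpoint kinase Bub1, the kinesins Cenpe and Kif20a and the kinase Aurka by -1.19 ± 0.36, -1.02 ± 0.32, -0.92 ± 0.27 and -0.95 ± 0.26 (limma adjusted p from 0.0213 to 0.0422). The number of calls was 0 without NES tumor 2, 3 or 4 or GFAP tumor 4, 1 without GFAP tumor 1, 4 without GFAP tumor 3 and 14 without NES tumor 1.

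The promoters of Ccnb2 and Cdk1 are shown because late cell cycle genes are known for a repressor element called CHR and for CCAAT boxes near the start. Capitals mark TTTGAA (or TTCAAA on the other strand) and CCAAT (or ATTGG), searched on both strands in the 250 bases before the start, which do not overlap each other in these windows. The windows are from RefSeq on GRCm38.p6, both on the minus strand, at chr9:70421555-70421804 for Ccnb2 and chr10:69352913-69353162 for Cdk1. The only TTTGAA match of Ccnb2 lay at -167 from the start, farther away than its CCAAT matches at -87 to -21. It is therefore not a match near the start. In Cdk1 the TTTGAA matches lay at -71 and -15 and the CCAAT matches at -208 to -48. Whether any of these matches acts as a CHR was not tested.
Ccnb2 promoter: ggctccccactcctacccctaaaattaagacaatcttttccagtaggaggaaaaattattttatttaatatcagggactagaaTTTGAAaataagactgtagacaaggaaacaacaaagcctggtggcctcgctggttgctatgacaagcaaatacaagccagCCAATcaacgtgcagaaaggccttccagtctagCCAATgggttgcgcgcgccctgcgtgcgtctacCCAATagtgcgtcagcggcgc
Cdk1 promoter: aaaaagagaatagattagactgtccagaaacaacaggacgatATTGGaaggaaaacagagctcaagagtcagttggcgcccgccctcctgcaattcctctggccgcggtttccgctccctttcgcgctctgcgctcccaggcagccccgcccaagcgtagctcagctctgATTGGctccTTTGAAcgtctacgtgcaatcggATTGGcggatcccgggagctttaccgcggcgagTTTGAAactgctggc
CCAAT or ATTGG stood in a window of 14 of the 16 genes found for the mitosis list and of 37.5% of all genes of the table. A gene with several starts counted if any of its windows matched. The match was present for 7 of 8 genes that were lower against tumors 1 to 4 and for 6 of 7 of those that did not pass. TTTGAA or TTCAAA stood in a window of 6 of the 16 and of 18.3% of all genes.

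Of 18 DNA replication genes, 9 were lower against tumors 1 to 4 and none against all 7, with medians of -0.76 and -0.37 and all differences negative in both. Mcm2, a subunit of the replicative helicase, was at 9.55, 8.78, 8.60 and 8.75 in NES tumors and at 10.35, 9.99, 9.88 and 9.91 in GFAP tumors 1 to 4. No array overlapped, and the difference was -1.11 ± 0.28 (limma adjusted p = 0.0181), while GFAP tumors 5 to 7 at 7.66, 9.38 and 9.10 fell around the NES range. The licensing factor Cdt1, the nucleotide synthesis enzymes Rrm2 and Tyms and the helicase subunits Mcm7 and Mcm4 were lower by -1.11 ± 0.23, -1.09 ± 0.26, -1.08 ± 0.30, -0.86 ± 0.24 and -0.81 ± 0.18 (limma adjusted p from 0.0102 to 0.0292). Without NES tumor 4 no replication gene was called, without NES tumor 3 there were 2, without NES tumor 2 or GFAP tumor 1 there were 3, and without GFAP tumor 4 there were 4.

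In the INK4, cyclin D and RB list, the transcription factor E2f1 was at 9.30, 8.70, 8.21 and 8.42 in NES tumors and at 9.80, 9.69, 9.80 and 10.14 in GFAP tumors 1 to 4. The arrays did not overlap, the difference was -1.20 ± 0.19 (limma adjusted p = 0.00349), and the call was kept without any 1 of the 8 tumors. GFAP tumors 5 to 7 were at 7.88, 8.46 and 8.45 for E2f1, and against all 7 the difference of -0.52 ± 0.31 did not pass (limma adjusted p = 0.273). Cdkn2a, its neighbour Cdkn2b at -1.19 ± 0.36 and the kinase Cdk4 at -0.70 ± 0.16 were the other calls, 4 of 11 in all (limma adjusted p = 0.0123, 0.0386 and 0.0126). In this list 1 call was left without NES tumor 3 or 4. Of 15 p53 target genes, the growth arrest gene Gadd45a was lower in both comparisons, by -1.05 ± 0.24 against all 7 and -0.65 ± 0.20 against tumors 1 to 4 (limma adjusted p = 0.0202 and 0.0424), and Mdm2 and Aen passed against tumors 1 to 4. None of these p53 calls was left without NES tumor 3 or 4, and against tumors 1 to 4 none without GFAP tumor 1, 3 or 4.

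Genes read as output and feedback of ERK signalling were lower against tumors 1 to 4 in 6 of 16 cases, with none higher and a median of -0.78. Against GFAP tumors 5 to 7 the median of the list was 0.51, in the opposite direction. Ier3, an early response gene, was at 9.49, 8.67, 7.66 and 7.74 in NES tumors and at 10.11, 9.68, 10.06 and 10.10 in GFAP tumors 1 to 4. NES tumor 1 was the nearest to the GFAP arrays without reaching them, and the difference was -1.60 ± 0.36 (limma adjusted p = 0.0126). The phosphatase Dusp4, the AP-1 factor Fosl1, Dusp5, Myc and the inhibitor Spred2 differed by -1.39 ± 0.31, -1.31 ± 0.35, -1.11 ± 0.33, -0.99 ± 0.27 and -0.51 ± 0.16 (limma adjusted p from 0.0126 to 0.0455). Against all 7, only Dusp4 passed, at -1.20 ± 0.37 (limma adjusted p = 0.0457), and the median was -0.20. No member was called without NES tumor 3 or 4, 2 were without NES tumor 2 or GFAP tumor 1 or 4, 3 without GFAP tumor 3 and 10 without NES tumor 1.

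Of 17 hypoxia and glycolysis genes, 4 were lower against all 7 tumors and 8 against tumors 1 to 4, with none higher and medians of -0.35 and -0.74. Hk2, the hexokinase of growing cells, was at 8.85, 8.43, 7.62 and 7.70 in NES tumors 1 to 4 and at 8.63 to 10.51 (median 9.22) in the GFAP tumors. NES tumor 1 reached into the range through GFAP tumor 5, and the difference was -1.29 ± 0.28 (limma adjusted p = 0.0162). Pgk1, a glycolytic kinase, was at 12.29, 12.03, 11.94 and 11.67 against 12.49 to 13.78 (median 12.89), with no overlap and a difference of -0.97 ± 0.20 (limma adjusted p = 0.0132). Lactate dehydrogenase A, Ldha, was at 12.66, 12.23, 12.14 and 11.75 against 12.28 to 13.43 (median 12.99). NES tumors 1 to 4 lay below all GFAP tumors except tumor 5, and the Ldha difference was -0.83 ± 0.18 (limma adjusted p = 0.0160). Adm, the vasodilator peptide adrenomedullin, was at 9.17, 8.20, 7.34 and 7.55 against 7.93 to 10.52 (median 9.94), a difference of -1.62 ± 0.42 (limma adjusted p = 0.0246). The hydroxylases Egln3 at -1.46 ± 0.40 and P4ha2 at -0.90 ± 0.27 and the growth factor Vegfa at -0.95 ± 0.28 passed too against tumors 1 to 4 (limma adjusted p from 0.0267 to 0.0381). None of the 17 differed from normal hippocampus in NES tumors by the limma test at an adjusted p under 0.05, and 10 were higher there in the 7 GFAP tumors. Calls against normal hippocampus also differed over all genes, at 8.56% in NES tumors and 41.4% in the 7 GFAP tumors. Of these calls none was left in either comparison without NES tumor 4; without NES tumor 3 there were 0 against all 7 and 1 against tumors 1 to 4.

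The Hk2 and Ldha promoters are shown because they hold the core of the hypoxia response element, ACGTG or CACGT on the other strand, which capitals mark and in which CACGTG counts once on each strand. From RefSeq on GRCm38.p6, the Hk2 window lies on the minus strand at chr6:82774455-82774704 and holds 2 matches. The Ldha window on the plus strand at chr7:46845554-46845803 holds 5; a second start of Ldha in the table has a window with none.
Hk2 promoter: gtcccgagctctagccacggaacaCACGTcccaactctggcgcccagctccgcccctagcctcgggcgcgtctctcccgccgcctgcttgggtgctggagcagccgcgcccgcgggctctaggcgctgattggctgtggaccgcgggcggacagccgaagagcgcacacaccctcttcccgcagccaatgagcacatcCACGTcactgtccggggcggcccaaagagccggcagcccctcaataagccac
Ldha promoter: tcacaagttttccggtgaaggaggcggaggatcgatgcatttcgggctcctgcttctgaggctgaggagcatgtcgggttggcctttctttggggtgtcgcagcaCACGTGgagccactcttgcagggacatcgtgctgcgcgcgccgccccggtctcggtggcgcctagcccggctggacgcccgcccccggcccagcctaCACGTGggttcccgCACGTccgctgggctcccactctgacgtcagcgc
The core stood in a window of 12 of 16 genes found for the list, which is 75%, and of 18.5% of all genes, with windows of the same length. A gene with several starts, such as Ldha, counted if any of its windows matched. The core was present for 7 of 8 genes that were lower against tumors 1 to 4 and for 5 of 8 of those that did not pass.

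Interferon-stimulated genes had positive differences throughout, with a single call. All 24 were positive in both comparisons, with medians of 0.79 against all 7 and 0.43 against tumors 1 to 4; 58% of all genes had a positive difference against all 7 and 46.4% against tumors 1 to 4. Only Oasl2, an antiviral synthetase-like gene, passed against all 7, at 1.43 ± 0.45 (limma adjusted p = 0.0473), and none passed against tumors 1 to 4, where Oasl2 differed by 0.69 ± 0.40 (limma adjusted p = 0.261). The mean of the list relative to normal hippocampus was 2.93, 2.55, 1.69 and 1.57 in NES tumors 1 to 4. It was 1.56, 1.92, 1.58 and 1.85 in GFAP tumors 1 to 4 and 0.48, 1.27 and 0.83 in tumors 5 to 7. NES tumors 1 and 2 were thus above all GFAP tumors and NES tumors 3 and 4 level with tumors 1 to 4. Oasl2 lost its call without NES tumor 1, 2, 3 or 4 or GFAP tumor 1, 5, 6 or 7. No gene of the MHC list (14 measured) or of the complement list (9 measured) passed in either comparison. In the list of phagocytic microglia 1 of 15 genes was lower in each comparison, beside 2.09% of all genes against all 7 and 7.05% against tumors 1 to 4. The tetraspanin Cd9 was lower against all 7, at -0.70 ± 0.21, and the receptor Axl against tumors 1 to 4, at -0.95 ± 0.23 (limma adjusted p = 0.0375 and 0.0177). Against tumors 1 to 4 the list was thus near the share of all genes.

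Against all 7 tumors 2 of 17 T and NK cell genes and 1 of 11 resting microglia genes were higher. Of 14 chemokines 2 were higher and 2 lower, and no neutrophil gene passed. Over all genes 6.12% were higher and 2.09% lower in that comparison. Against tumors 1 to 4, 2 of 8 neutrophil genes were lower, beside 7.05% of all genes. Cd4 was at 6.76, 7.21, 7.48 and 6.96 in NES tumors and at 5.72 to 6.70 (median 6.43) in GFAP tumors, with no overlap and a difference of 0.76 ± 0.17 (limma adjusted p = 0.0183). Cd3e, a chain of the T cell receptor complex, passed against all 7 at 0.38 ± 0.12 (limma adjusted p = 0.0443) and lost that call with either rescaling. Cd3e signal was 7.06 to 7.36 in NES tumors and 6.65 to 7.07 in GFAP tumors. Normal hippocampus, at 6.89 to 7.16, overlapped both. The T and NK cell list, with these 2 calls of 17, had a median of 0.15, and its mean relative to normal hippocampus was 0.10 to 0.32 in NES tumors and -0.17 to 0.09 in GFAP tumors. P2ry12, a receptor of resting microglia, was at 8.94, 9.32, 9.44 and 8.96 against 6.51 to 9.18 (median 7.88). Only GFAP tumor 2 reached into the NES range, and the difference was 1.33 ± 0.37 (limma adjusted p = 0.0334); against tumors 1 to 4 it was 0.61 ± 0.30 and did not pass (limma adjusted p = 0.177). Of 14 chemokines, Cx3cl1, a neuronal ligand of microglia, was higher by 1.42 ± 0.32 and Cxcl14 by 0.77 ± 0.24, while Ccl6 and Ccl9, which myeloid cells make, were lower by -1.57 ± 0.48 and -1.17 ± 0.33 (limma adjusted p from 0.0175 to 0.0454 against all 7). The acute phase gene Cd14 was lower in both comparisons, at -0.98 ± 0.28 and -1.16 ± 0.24 (limma adjusted p = 0.0341 and 0.0110). In the neutrophil list Cxcr2 and S100a8 were lower against tumors 1 to 4, at -1.39 ± 0.42 and -1.18 ± 0.35 (limma adjusted p = 0.0380 and 0.0359). All of these calls were lost without NES tumor 4.

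**Figure D4:**
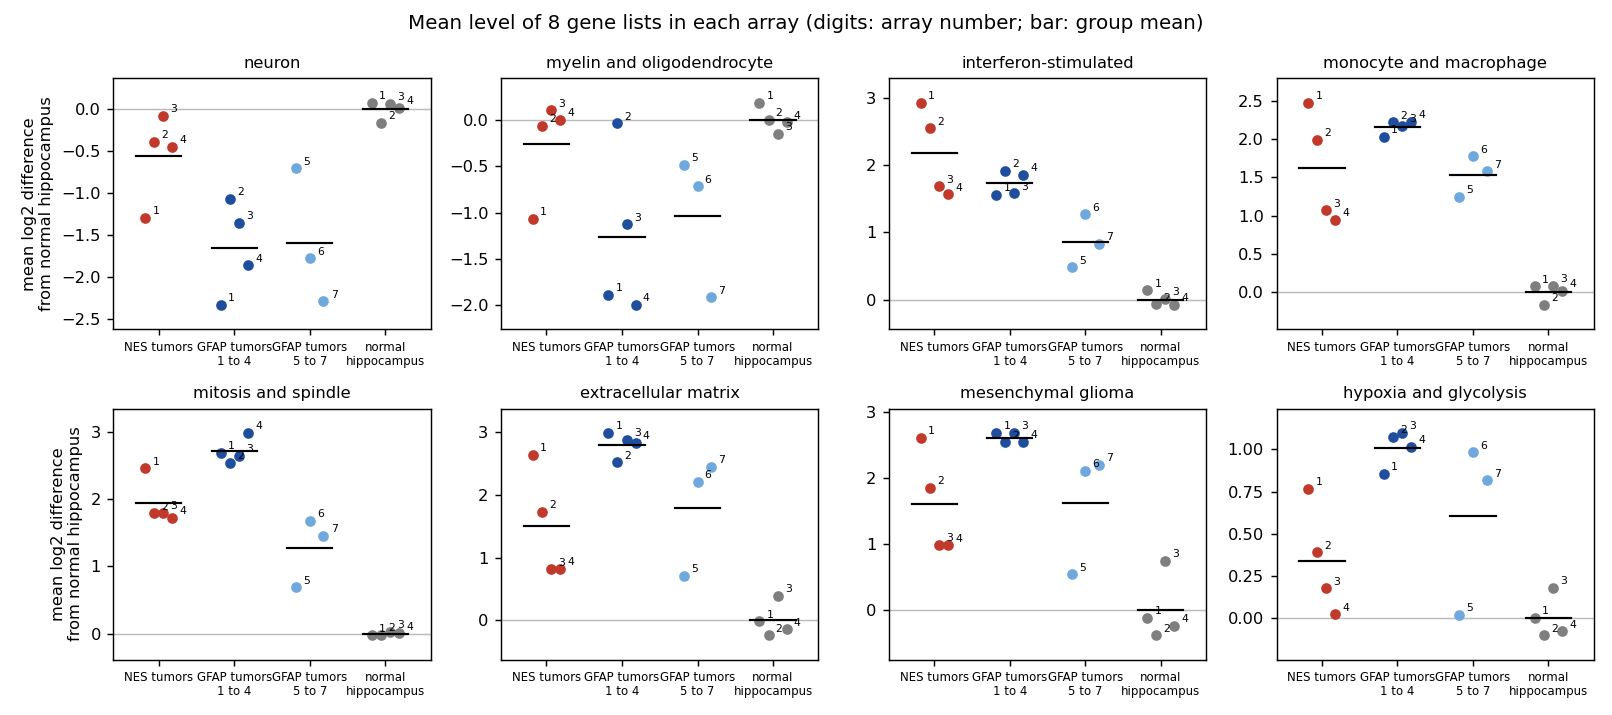
Mean log2 difference from normal hippocampus (vertical axis) of 8 gene lists in each array, by group (horizontal axis); each point is 1 array with its number, and the bar is the group mean. NES tumor 1 lies with GFAP tumors 1 to 4 for the matrix list at 2.64 and GFAP tumor 5 lies near normal tissue for the hypoxia list at 0.02.

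Against GFAP tumors 1 to 4, 4 of 12 endothelial genes, 1 of 10 angiogenic genes, 1 of 10 blood-brain barrier genes and 1 of 14 mural cell and fibroblast genes were lower, and none of these lists had a higher call. Over all genes 7.05% were lower there, so the lists with 1 call were near that share. The endothelial genes were Cdh5 (VE-cadherin), Emcn, Cldn5 and Pecam1, at -0.93 ± 0.22, -0.72 ± 0.21, -0.64 ± 0.20 and -0.58 ± 0.19 (limma adjusted p from 0.0154 to 0.0489), and the list median was -0.54, beside 0.14 against GFAP tumors 5 to 7. Cdh5 was at 9.53, 9.07, 8.81 and 8.38 in NES tumors, 9.80, 9.80, 9.95 and 9.95 in GFAP tumors 1 to 4, and 7.71, 8.29 and 8.14 in GFAP tumors 5 to 7. The NES tumors therefore lay between both kinds of GFAP tumor. Only Cldn5, a tight junction protein, passed against all 7, at -0.68 ± 0.17 (limma adjusted p = 0.0229). Esm1, a marker of sprouting tip cells, was at 9.39, 8.40, 7.81 and 8.51 against 10 to 10.33 in tumors 1 to 4, a difference of -1.62 ± 0.50 (limma adjusted p = 0.0417). The glucose transporter Slc2a1 was lower in both comparisons, by -0.73 ± 0.21 and -0.79 ± 0.21 (limma adjusted p = 0.0362 and 0.0245). No endothelial gene was called without NES tumor 3 or 4, 1 was without NES tumor 2 or GFAP tumor 1, 3 or 4, and Emcn and Pecam1 lost their calls with quantile normalization. Esm1 kept its call only when the tumor left out was NES tumor 1.

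Receptor and patterning genes showed few calls. Against all 7 tumors, 1 of 11 Notch and 2 of 12 patterning genes were higher and 1 of 14 receptor tyrosine kinases lower. Against tumors 1 to 4, 2 of 11 Notch genes and 1 of 12 patterning genes were lower. Of the 14 kinases 1 was higher there and 2 lower. Over all genes 6.12% were higher and 2.09% lower against all 7, and 3.86% and 7.05% against tumors 1 to 4. The receptor Notch2 was at 10.07, 9.56, 8.98 and 8.84 in NES tumors and at 10.95, 10.63, 10.28 and 10.40 in GFAP tumors 1 to 4, with no overlap and a difference of -1.20 ± 0.21 (limma adjusted p = 0.00727). Its target Hes1 was lower there by -0.74 ± 0.19 (limma adjusted p = 0.0226), while the target Hey2 was higher against all 7 by 0.98 ± 0.24 (limma adjusted p = 0.0232). Of 14 receptor tyrosine kinases, Met, the receptor of hepatocyte growth factor, was lower against all 7 by -0.89 ± 0.26 (limma adjusted p = 0.0371). Against tumors 1 to 4 the collagen receptor Ddr2 and the insulin receptor Insr were lower by -1.17 ± 0.32 and -0.62 ± 0.19, and Fgfr2 was higher by 0.82 ± 0.25 (limma adjusted p from 0.0269 to 0.0425). Lhx8, a homeobox gene of the ventral forebrain, was at 8.03, 7.42, 8.41 and 7.49 in NES tumors and at 10.99, 8.16, 10.24 and 9.22 in GFAP tumors 1 to 4. NES tumor 3 overlapped with GFAP tumor 2, and the difference was -1.82 ± 0.43 (limma adjusted p = 0.0161), with normal hippocampus at 6.72 to 6.96. Meis2 and Six3 were higher against all 7, at 1.38 ± 0.42 and 0.51 ± 0.14 (limma adjusted p = 0.0437 and 0.0326), and the Six3 call was lost with either rescaling. Every call of this paragraph was lost without NES tumor 4. Of 15 oxidative phosphorylation genes none passed in either comparison.

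**Figure D5:**
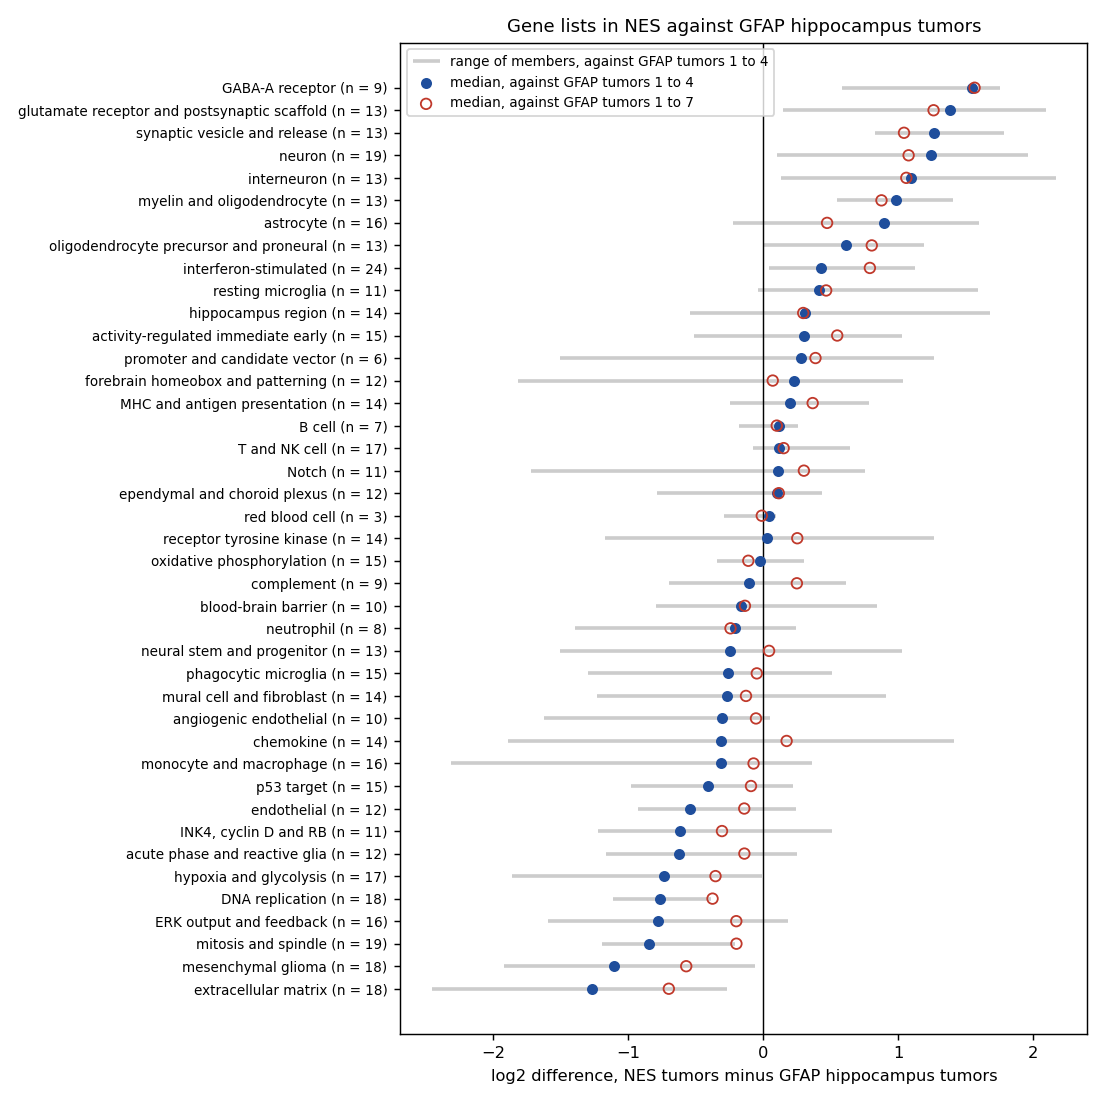
Log2 difference between NES and GFAP hippocampus tumors (horizontal axis) for each gene list (vertical axis, with the number of measured genes); filled points are list medians against GFAP tumors 1 to 4, open points against all 7, and grey lines span the members against tumors 1 to 4. Synapse and neuron lists lie highest, the GABA-A receptor list at 1.55, and the extracellular matrix list lowest at -1.27.

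Set beside normal hippocampus with the same normal arrays, 1706 genes (8.56%) passed in NES tumors, 8245 (41.4%) in the 7 GFAP tumors and 9063 (45.5%) in GFAP tumors 1 to 4. For the neuron list 1 of 19 genes was lower than normal in NES tumors and 14 in the 7 GFAP tumors, with medians of -0.65 and -1.66. For the matrix list 9 of 18 were higher in NES tumors and 17 in the GFAP tumors, with medians of 1.52 and 2.44. For interferon-stimulated genes 22 of 24 were higher in NES tumors and 20 in GFAP tumors, with medians of 2.11 and 1.39.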

How the data were processed

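The arrays measured total RNA from dissected tumors and from normal tissue. The authors deposited log2 expression values, 1 per probe set and array; per the submitters' processing notes Affymetrix Power Tools, RMA and MAS5 were named, without versions, and which of them made these values and how arrays were normalized to each other is not given in the sources used here. Of 35556 probe sets, 21789 had 1 gene symbol, 1621 several and 12146 none; 21698 of the 21789 matched RefSeq of GRCm38.p6, whose promoter sequences are used. Where a gene had several probe sets (999 genes) the one with the highest mean was kept, which left 19938 genes.

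Differences were tested with limma 3.58.1 in R 4.3.3 on group means in 7 label groups, over all 30 arrays against GFAP tumors 1 to 7 and over 27 arrays, without tumors 5 to 7, against tumors 1 to 4. Benjamini-Hochberg adjustment ran over all 19938 genes and a call is an adjusted p under 0.05. Errors after ± are standard errors of the fit. The number of arrays limits the precision. The named genes are the 15 largest called differences in each direction whose arrays did not overlap against all 7 tumors, the 10 in each direction against tumors 1 to 4, up to 6 called members of each of 41 gene lists, and all of the list of promoter and candidate vector genes, leaving out predicted genes. Members and lists were chosen with earlier results of these data known. Alternatives were array centring, quantile normalization, a filter on low genes, the mean of probe sets, a fold threshold, limma's trend, robust and array weight options, other sets of arrays, a replicate block and leaving out each array. The tests were tried on simulated data.

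Same-numbered NES and GFAP tumors had residual correlations of 0.385, 0.135, 0.209 and -0.164. The numbers were not taken as pairs, although these values cannot exclude a pairing.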

Additional observations from a re-analysis of the deposited data

Results flagged for a closer look

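Single tumors stood far from the others of their group for 32 of 308 groups of levels, those of 154 named genes in the 4 NES and the 7 GFAP hippocampus tumors. Chance gives such a gap in about 1 in 20 groups, and the genes were named with the same arrays in view. GFAP hippocampus tumor 5 accounted for 22 of them. In log2 signal it was the extreme of the 7 GFAP tumors for Sh3rf2 at 7.515, Neurod6 at 7.273, Fbln2 at 8.119, Mmp12 at 7.115, Plod2 at 8.156, Fam110c at 6.745, S100a6 at 9.938, Cplx2 at 9.601, Stx1a at 9.253, Axl at 9.258, Cd14 at 7.426, Esm1 at 8.173, Slc2a1 at 11.814, Mcm7 at 8.157, Cdkn2a at 8.167, Cdk4 at 11.373, Thbs1 at 9.87, Lamb1 at 8.934, Plau at 9.062, Anxa2 at 9.603, Emp3 at 9.55 and Ddr2 at 8.604. It was higher than the other GFAP tumors for the neuronal genes Neurod6, Cplx2 and Stx1a and lower for matrix and mesenchymal genes such as Fbln2, Lamb1 and Anxa2.

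NES hippocampus tumor 1 accounted for 7. It was the extreme of the 4 NES tumors for Epha4 at 8.813, Sox4 at 9.411, Aurka at 8.671, Cdt1 at 8.799, Dusp4 at 9.788, Myc at 10.746 and Spred2 at 10.942. The remaining 3 were Sox6 at 9.025 in GFAP hippocampus tumor 3, Hey2 at 7.909 in GFAP hippocampus tumor 2 and Nf1 at 11.128 in NES hippocampus tumor 3.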

How the results depend on the processing

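Calls against all 7 GFAP tumors (1220 higher, 417 lower in NES tumors) and against tumors 1 to 4 (769 and 1405) moved as follows. Against all 7 they were 444 and 62 past a 2-fold threshold, 731 and 1515 with array centring, 1267 lower with quantile normalization, 0 and 0 in a fit of the compared groups alone, 613 and 106 with hippocampus arrays only, 2535 and 731 without GFAP cortex tumor 1, 2851 and 1864 with array weights, 3200 and 931 with GFAP tumors 5 to 7 fitted as a group of their own, and 5457 and 1249 when GFAP tumors 5 to 7 alone were compared. Leaving out 1 tumor gave 5 to 2530 higher and 1 to 917 lower. Against tumors 1 to 4 they were 294 and 300 past 2-fold, 2487 lower with centring, 0 and 0 in a fit of the compared groups alone, 2073 and 2145 without GFAP cortex tumor 1, 2735 and 3446 with array weights, and 3270 and 3343 without NES tumor 1 and that cortex tumor, an alternative added after seeing the data. Leaving out 1 tumor gave 2 to 2247 higher and 10 to 2696 lower. The cause of these moves was not tested. Whether same-numbered tumors are pairs could not be decided by the residual check, which rests on single correlations between arrays of small groups. NES tumors 1 and 2 deviated most like the GFAP tumor of their own number among GFAP tumors 1 to 4, and NES tumors 3 and 4 most like GFAP tumor 2. With the replicate block, which only arrays numbered 1 to 4 can inform, both comparisons give the same estimate (median -0.03 over all genes), with 1148 higher and 1596 lower; 41.8% were higher, and 936 of the 1637 calls against all 7 and 2142 of the 2174 against tumors 1 to 4 were shared. GFAP tumors 5 to 7 do not contribute to it. Of 4216 results of named genes under these settings 3015 kept direction and side of the threshold, 1180 lost their call, 17 gained one and 4 turned, none of them a call. Gfap was -0.27 against tumors 5 to 7 only. Nf1 against tumors 1 to 4 was -0.024 with centring and -0.033 with array weights, and ran from -0.06 to 0.18 when 1 tumor was left out. Background signal limits the differences of genes of low signal.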

Other observations

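Ribosomal protein genes, taken up after the values of Rpsa, Rpl8 and Rps18 had been seen, were lower in NES tumors where they passed. Of 60 measured, 23 were lower by limma against all 7 GFAP tumors and 39 against GFAP tumors 1 to 4, and 0 were higher in either comparison. Over all genes 2.09% and 7.05% were lower in these comparisons. Rpsa, Rpl8 and Rps18, which prompted the count, are included in it. The median difference of the ribosomal genes was -0.30 against all 7 (0.06 over all genes), with 44 of 60 negative. It was -0.55 against tumors 1 to 4 (-0.03 over all genes), with 59 of 60 negative. Against GFAP tumors 5 to 7 it was -0.13, with 32 of 60 negative. These genes have many near-identical copies, so which copy a probe set reads is uncertain.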
